A study of Mus musculus with 6 samples.

Results

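The genes described here are the receptor gene Sirpa, the gene of its ligand CD47, and 8 genes whose products act on the inner side of the receptor: Ptpn6, Ptpn11, Grb2, Skap2, Ptk2b, Src, Lyn and Csk. They were chosen by name, as the receptor, its ligand and known intracellular partners, and all 10 were found among the 39179 genes counted. RNA came from cultured B16-F10 cells, a melanoma line derived from C57BL/6 mice. A group of 3 libraries was labelled Sirpa-KO, in which the Sirpa gene had been knocked out, and a group of 3 was labelled Sirpa-WT, in which it was intact. No treatment was named for either group. The labels give neither the editing reagent nor whether the knockout line is a single clone, and nothing in them says whether replicates were grown separately. The p-values therefore reflect the spread among 6 libraries, which may be technical. One label field gives another cell line name and a tumour source, although the series text describes cells in culture.

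SIRPα is a transmembrane receptor of the immunoglobulin superfamily, best known on macrophages, dendritic cells and neurons. When its extracellular domain meets CD47 on another cell, SRC family kinases phosphorylate tyrosines in its cytoplasmic tail, and these tyrosines recruit the phosphatases SHP-1 and SHP-2; in macrophages the outcome is restraint of phagocytosis. Tumour cells are usually studied as the side that displays CD47, and the comparison of the 2 cell lines bears on SIRPα made by the tumour cell itself.

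Sirpa-KO replicate 1 stood apart from the other libraries. It held 29877270 counted fragments, and the other 5, called the shallow libraries here, held 338824 to 411695, so that 1 fragment in a shallow library equals 2.43 to 2.95 CPM (counts per 1000000 counted fragments). Across 5102 genes, which are not independent replicates, the correlation of log2 CPM was 0.924 to 0.948 between shallow libraries and 0.0515 to 0.129 between Sirpa-KO replicate 1 and any of them. Pseudogenes took 0.216% of the fragments in Sirpa-KO replicate 1 and 27.0% to 30.2% in the shallow libraries. Each comparison of the 10 genes between the groups is therefore given with and without that library. In all 6 libraries the 7 melanocyte markers were abundant, with a summed level of 15519 CPM in Sirpa-KO replicate 1, 12626 and 12990 CPM in the other Sirpa-KO libraries and 15960 to 19092 CPM in Sirpa-WT. Of the 7, Mitf, Dct and Pmel fell in Sirpa-KO when replicate 1 was left out, where edgeR called 4.52% of all tested genes lower. With 6 libraries edgeR and DESeq2 called none of the 7, and limma voom called 2, against 23.8% of all genes. The part of the fall of these markers in the results below was not tested. Several of the 10 genes are strongest in blood cells. Among 10 haematopoietic markers, Ptprc, Adgre1, Csf1r, Laptm5 and Cd3e had no fragment in any shallow library. Itgam, an integrin subunit gene of myeloid cells, carried most of the fragments of the list there, with 5 and 9 in Sirpa-KO replicates 2 and 3 against 3, 7 and 5 in Sirpa-WT, while Sirpa-KO replicate 1 had 1; Cd68, Lyz2 and Coro1a had at most 2 in a shallow library. The summed level of the 10 was 5.69 CPM in Sirpa-KO replicate 1, 14.8 and 32.6 CPM in the other Sirpa-KO libraries and 9.72 to 29.1 CPM in Sirpa-WT.

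Grb2 and Skap2, which encode adaptor proteins, were the most abundant of the 10 genes in the shallow libraries, and Lyn and Ptk2b, which encode tyrosine kinases, were close to the limit of detection. On a scale of CPM per kilobase of exon, which allows levels to be compared between genes, the means over the 5 shallow libraries were 59.5 for Grb2, 36.3 for Skap2, 17.0 for Csk, 14.6 for Ptpn11, 6.50 for Cd47, 3.76 for Sirpa, 2.69 for Ptpn6, 2.39 for Src, 0.515 for Lyn and 0.299 for Ptk2b. In that order, 4 steps separated genes whose ranges over the 5 libraries did not touch, those after Grb2, Skap2, Ptpn11 and Src. The other neighbours overlapped, so Csk and Ptpn11 were not ordered beyond their spread, nor were Cd47, Sirpa, Ptpn6 and Src as a chain of neighbours, nor Lyn and Ptk2b. Among 21226 protein-coding genes, the share with a lower mean level per kilobase ran from 49.5% for Ptk2b and 73.0% for Sirpa to 96.6% for Grb2.

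The order differed in Sirpa-KO replicate 1. Skap2 led there at 144.8 CPM per kilobase, followed by Csk at 37.0, Ptpn11 at 25.8, Grb2 at 19.4, Src at 11.5, Sirpa at 10.8, Ptpn6 at 6.46, Lyn at 4.91, Cd47 at 4.21 and Ptk2b at 1.43. In CPM, 8 of the 10 genes were higher in Sirpa-KO replicate 1 than in every shallow library, and Cd47 and Grb2 were lower than in every one. With totals over protein-coding genes, Ptpn11 and Ptk2b were not highest in Sirpa-KO replicate 1. A shallow Sirpa-KO library then held the highest value of either gene, at 229 and 11.5 CPM. The median ratio of Sirpa-KO replicate 1 to the shallow mean was 1.89 over 4294 protein-coding genes that passed the count filter, with quartiles of 0.635 and 2.56. Against that background Ptpn11 had a ratio of 1.77 and Csk of 2.18, both inside the quartiles, as was Cd47 at 0.648. Skap2, at 3.99, exceeded 94.3% of those genes, and Grb2, at 0.326, exceeded 4.59% of them. With totals over protein-coding genes the median ratio was 1.33, with Ptpn11 at 1.25 and Csk at 1.54. The part of library quality or origin in these ratios was not tested.

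**Figure D1:**
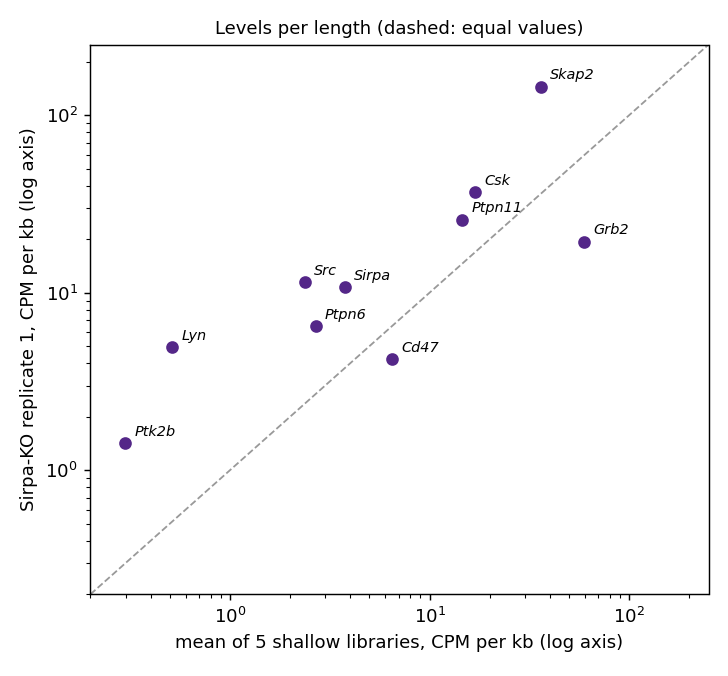
Level of each of the 10 genes in CPM per kilobase of exon, on log axes, in Sirpa-KO replicate 1 (vertical) against the mean of the 5 shallow libraries (horizontal); each point is a gene and the dashed line marks equal values. Cd47 and Grb2 lie below the line and the other 8 genes above it.

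Sirpa, the targeted gene (ENSMUSG00000037902, GRCm38 chromosome 2, 129592835 to 129632228, plus strand), had 1584, 6 and 6 fragments in Sirpa-KO replicates 1 to 3 and 12, 7 and 3 in Sirpa-WT replicates 1 to 3. These counts correspond to 53.0, 17.7 and 16.3 CPM in Sirpa-KO and to 29.1, 20.4 and 8.68 CPM in Sirpa-WT. The groups overlapped, since the shallow Sirpa-KO libraries lay inside the Sirpa-WT range and Sirpa-KO replicate 1 above it. Pooled over the shallow libraries, the 2 of Sirpa-KO had 12 fragments and the 3 of Sirpa-WT had 22, a ratio of 0.850 with an exact 95% interval of 0.383 to 1.79. This interval and those below cover counting error only. The log2 fold change, Sirpa-KO over Sirpa-WT, was 0.17 ± 0.62 (SE) with 6 libraries (edgeR adjusted p = 0.938) and -0.38 ± 0.53 without Sirpa-KO replicate 1 (edgeR adjusted p = 0.806). Counts summed over a whole gene do not show an edit within it, so they do not check the genotype, and the group names below are those of the labels. In bulk RNA, a smaller share of cells with a transcript and less of it per cell cannot be told apart.

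Cd47 (ENSMUSG00000055447, chromosome 16, 49855618 to 49915010, plus strand) encodes the ligand, a membrane protein of most cell types. It had 664, 14 and 9 fragments in Sirpa-KO and 16, 14 and 9 in Sirpa-WT, or 22.2, 41.3 and 24.5 CPM in Sirpa-KO and 38.9, 40.7 and 26.0 CPM in Sirpa-WT. The highest shallow library of each group stood near 41 CPM and the lowest near 25, so the groups overlapped almost fully. Its log2 fold change was -0.43 ± 0.46 (SE) with 6 libraries (edgeR adjusted p = 0.692) and -0.24 ± 0.39 with 5 (edgeR adjusted p = 0.788). The pooled ratio of the shallow libraries was 0.919, with an interval of 0.524 to 1.58. In the authors' annotation 1815 of the 5277 exon bases of Cd47, or 34.4%, also belong to another gene on the same strand, ENSMUSG00000079488, which had 0 fragments in all 6 libraries. Fragments in bases shared by 2 genes are not assigned to either by the counter's default, which the recorded command does not change. Divided by the 3462 bases that Cd47 does not share, its mean level in the shallow libraries was 9.90 CPM per kilobase, against 6.50 over all of its exon bases. Per kilobase of all exon bases, the ratio of Sirpa to Cd47 was 2.56, 0.461 and 0.716 in Sirpa-KO replicates 1 to 3 and 0.806, 0.537 and 0.358 in Sirpa-WT replicates 1 to 3. Receptor RNA thus exceeded ligand RNA in Sirpa-KO replicate 1 and was below it in every shallow library.

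**Figure D2:**
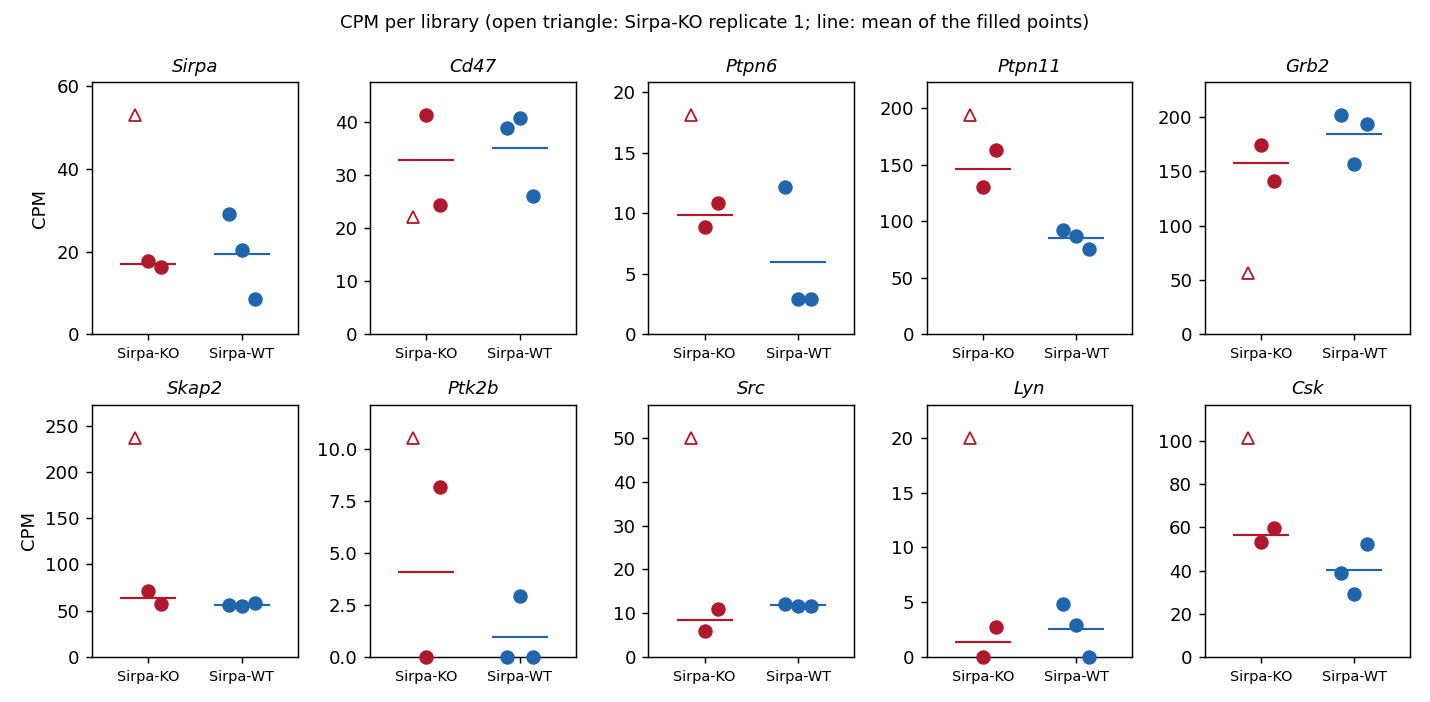
CPM of each gene in every library, with Sirpa-KO on the left and Sirpa-WT on the right of each panel; open triangles are Sirpa-KO replicate 1, filled points are the shallow libraries and lines are the means of the filled points. For Ptpn11 the lowest Sirpa-KO value, 129.9 CPM, lies above the highest Sirpa-WT value, 92.3 CPM.

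The phosphatase genes differed in level. Ptpn11, which encodes SHP-2, a phosphatase present in most cells and needed for growth factor signalling to RAS, lies on chromosome 5 (ENSMUSG00000043733, 121130533 to 121191397, minus strand). It had 5785, 44 and 60 fragments in Sirpa-KO and 38, 30 and 26 in Sirpa-WT, or 193.6, 129.9 and 163 CPM in Sirpa-KO and 92.3, 87.3 and 75.2 CPM in Sirpa-WT. Each Sirpa-KO library was higher than each Sirpa-WT library. Without Sirpa-KO replicate 1 the mean was 147 ± 23.6 CPM in Sirpa-KO (SD, n = 2) and 84.9 ± 8.8 CPM in Sirpa-WT (SD, n = 3). The log2 fold change over these 5 libraries was 0.66 ± 0.23 (SE), which did not pass edgeR's quasi-likelihood test (adjusted p = 0.0522; unadjusted p = 0.00321). With 6 libraries it was 0.78 ± 0.27 (edgeR adjusted p = 0.574; unadjusted p = 0.0292). The pooled ratio of the shallow libraries was 1.72, with an interval of 1.29 to 2.30, and Ptpn11 was the 1 gene of the 10 whose interval did not include 1. Over all 16568 genes with a fragment in a shallow library, 10.5% had such an interval, which is also about 1 in 10.

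The Ptpn11 difference was positive under every setting tried on the 5 libraries, from 0.47 without Sirpa-KO replicate 3 to 0.80 with scaling by library size alone. It passed the threshold with library size alone (edgeR adjusted p = 0.0121), a scaling under which the median log2 fold change of all genes moved to 0.15, against 0.013 under TMM scaling. After a lowess correction for how far each gene differed between the deep and the shallow libraries it was 0.54 (edgeR adjusted p = 0.244). Of 8 protein-coding genes tested within 1 megabase of Ptpn11, 6 had a positive log2 fold change, with a median of 0.32. Around the other genes described, this share ran from 0 of 2 for Cd47 and for Ptk2b to 6 of 7 for Sirpa. Naa25, a subunit of a protein N-terminal acetyltransferase, rose (1.29 ± 0.39, SE, edgeR adjusted p = 0.0219) and Tpcn1, an endolysosomal channel gene, fell (-1.27 ± 0.42, SE, edgeR adjusted p = 0.0434). Over all genes tested with these 5 libraries, edgeR called 1.32% higher and 4.52% lower. The part of position in the Ptpn11 difference was not tested.

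**Figure D3:**
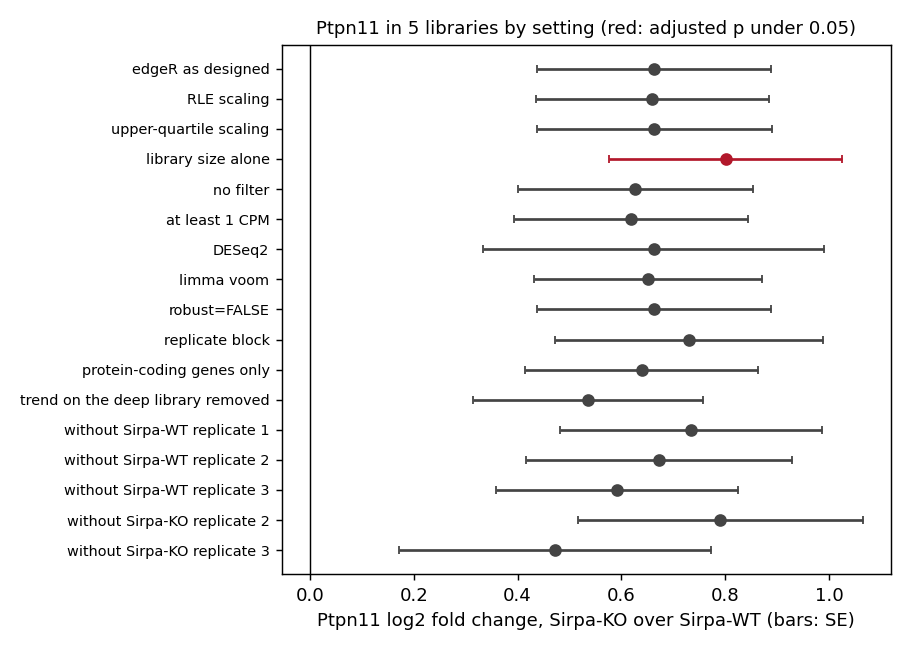
Log2 fold change of Ptpn11, Sirpa-KO over Sirpa-WT, over the 5 shallow libraries under each processing setting; points are estimates, bars are standard errors and red marks an adjusted p under the 0.05 threshold. All points lie to the right of 0, between 0.47 and 0.80, and only scaling by library size alone is red; DESeq2 gave no adjusted p.

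Ptpn6, which encodes SHP-1, the phosphatase typical of blood cells, was scarce (ENSMUSG00000004266, chromosome 6, 124720707 to 124738714, minus strand). It had 541, 3 and 4 fragments in Sirpa-KO and 5, 1 and 1 in Sirpa-WT, equal to 18.1, 8.85 and 10.9 CPM in Sirpa-KO and 12.1, 2.91 and 2.89 CPM in Sirpa-WT. The highest Sirpa-WT library exceeded both shallow Sirpa-KO libraries, so the groups overlapped. The pooled counts of 7 and 7 gave a ratio of 1.56 with an interval of 0.466 to 5.21, so these counts do not tell apart ratios within those bounds. Its log2 fold change was 0.68 ± 0.93 (SE) with 6 libraries (edgeR adjusted p = 0.938) and 0.46 ± 0.82 with 5 (edgeR adjusted p = 0.853). Per kilobase, Ptpn11 was 5.56 times as abundant as Ptpn6 in the pooled shallow Sirpa-KO libraries and 5.02 times in the pooled Sirpa-WT libraries, whose single libraries ran from 2.84 to 11.2. In Sirpa-KO replicate 1, where both genes were well counted, the ratio was 4.0. An antisense gene, Gm20531, covers 195 of the exon bases of Ptpn6 (6.96%), and its own count was 0 in each library.

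The adaptor genes were the most abundant of the 10 in the shallow libraries, and neither passed the test. Grb2 (ENSMUSG00000059923, chromosome 11, 115644045 to 115708597, minus strand) encodes the SH2 and SH3 domain protein that joins phosphorylated receptors and SHP-2 to the RAS activator SOS. It had 1689, 59 and 52 fragments in Sirpa-KO and 83, 54 and 67 in Sirpa-WT, or 56.5, 174 and 141 CPM in Sirpa-KO and 202, 157 and 194 CPM in Sirpa-WT. The shallow groups overlapped between 157 and 174 CPM, and Sirpa-KO replicate 1 stood far below all others. Grb2 had a log2 fold change of -0.72 ± 0.48 (SE) with 6 libraries (edgeR adjusted p = 0.574) and -0.35 ± 0.19 with 5 (edgeR adjusted p = 0.286).

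Grb2 has a processed pseudogene, Gm12791, on chromosome 4 (GRCm38, 101875347 to 101876001). The Grb2 coding sequence of 651 bases and the pseudogene were 98.0% identical over 652 aligned positions, and 14.1% of the 25-base words in Grb2 transcripts also occurred in annotated pseudogenes. The 60 aligned bases with the most differences, starting at base 280 of the coding sequence, are shown from the GENCODE transcript sequences. Differing bases are what lets a read be assigned to the gene or to its copy, and the 5 differing bases shown are in capitals.
Grb2: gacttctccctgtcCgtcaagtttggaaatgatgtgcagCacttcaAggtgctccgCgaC
Gm12791: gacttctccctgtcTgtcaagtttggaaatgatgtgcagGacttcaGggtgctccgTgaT
Gm12791 itself had 4, 0 and 2 fragments in Sirpa-KO and 1, 1 and 2 in Sirpa-WT. Reads that match both copies equally well may have been left out of the Grb2 count, which makes its level less certain.

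Skap2 (ENSMUSG00000059182, chromosome 6, 51859166 to 52012549, minus strand) encodes an adaptor that binds the SIRPα tail in macrophages and links it to actin. It had 7088, 24 and 21 fragments in Sirpa-KO and 23, 19 and 20 in Sirpa-WT, or 237, 70.8 and 57.1 CPM in Sirpa-KO and 55.9, 55.3 and 57.9 CPM in Sirpa-WT. The shallow libraries were alike, and Sirpa-KO replicate 1 alone was several times higher. Its log2 fold change was 0.95 ± 0.58 (SE) with 6 libraries (edgeR adjusted p = 0.574) and 0.058 ± 0.29 without that library (edgeR adjusted p = 0.942). The pooled ratio of the shallow libraries was 1.13, with an interval of 0.753 to 1.69.

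Csk (ENSMUSG00000032312, chromosome 9, 57626647 to 57645653, minus strand) encodes the kinase that phosphorylates the inhibitory C-terminal tyrosine of SRC family kinases. It had 3035, 18 and 22 fragments in Sirpa-KO and 16, 10 and 18 in Sirpa-WT, or 101.6, 53.1 and 59.8 CPM in Sirpa-KO and 38.9, 29.1 and 52.1 CPM in Sirpa-WT. In CPM each Sirpa-KO library was higher than each Sirpa-WT library, although the nearest pair, at 53.1 and 52.1 CPM, were both libraries of 18 fragments. With totals over protein-coding genes the groups overlapped, since the lowest Sirpa-KO value was 74.9 CPM and the highest Sirpa-WT value 76.8 CPM. The fitted log2 fold change was 0.68 ± 0.42 (SE) with 6 libraries (edgeR adjusted p = 0.574) and 0.38 ± 0.33 with 5 (edgeR adjusted p = 0.557). Csk shared none of its 25-base words with another annotated gene.

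Src (ENSMUSG00000027646, chromosome 2, 157418444 to 157471862, plus strand), which encodes the widely expressed founding member of its kinase family, had 1496, 2 and 4 fragments in Sirpa-KO and 5, 4 and 4 in Sirpa-WT. These counts correspond to 50.1, 5.90 and 10.9 CPM in Sirpa-KO and to 12.1, 11.6 and 11.6 CPM in Sirpa-WT. The shallow Sirpa-KO libraries were below all Sirpa-WT libraries and Sirpa-KO replicate 1 was above them, so the direction turned with that library. The log2 fold change was 0.50 ± 0.76 (SE) with 6 libraries (edgeR adjusted p = 0.938) and -0.61 ± 0.73 with 5 (edgeR adjusted p = 0.798). The pooled ratio of 0.719 had an interval of 0.224 to 2.03.

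Lyn (ENSMUSG00000042228, chromosome 4, 3678115 to 3813122, plus strand) encodes a SRC family kinase prominent in myeloid and B cells. It had 598, 0 and 1 fragments in Sirpa-KO and 2, 1 and 0 in Sirpa-WT, so each shallow count was under the floor of 3 fragments, which equals 7.29 to 8.85 CPM there. The pooled ratio of 0.519 had an interval of 0.0099 to 6.47, and these counts do not tell apart ratios within those bounds. The fitted values were 1.16 ± 1.51 (log2, SE) with 6 libraries (edgeR adjusted p = 0.938) and -0.93 ± 1.68 with 5 (edgeR adjusted p = 0.853). Sirpa-KO replicate 1 over the pooled Sirpa-WT libraries gave a ratio of 7.35, with an interval of 2.50 to 35.7. This was not particular to Lyn, since that interval left out 1 for every gene described here. It was 3.28 to 5.50 for Skap2 and, in the other direction, 0.454 to 0.890 for Cd47 and 0.264 to 0.355 for Grb2. An unprocessed pseudogene nearby, Gm11787, shares 757 of the 4065 distinct 25-base words of Lyn transcripts, and had 0, 5 and 0 fragments in Sirpa-KO and 2, 1 and 1 in Sirpa-WT, so that reads of Lyn and of its copy are uncertain. A long noncoding RNA on the opposite strand, Gm26857, overlaps 248 exon bases of Lyn.

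Ptk2b (ENSMUSG00000059456, chromosome 14, 66153257 to 66281052, minus strand) encodes PYK2, a focal adhesion family kinase that associates with SIRPα complexes in macrophages. It had 315, 0 and 3 fragments in Sirpa-KO and 0, 1 and 0 in Sirpa-WT. Those 3 fragments in 1 library carried the pooled ratio of 4.68, whose interval of 0.375 to 245 includes both directions. Ptk2b had fitted values of 2.39 ± 1.86 (log2, SE) with 6 libraries (edgeR adjusted p = 0.938) and 1.74 ± 1.62 with 5 (edgeR adjusted p = 0.798). Sirpa-KO replicate 1 held 10.5 CPM, so that both Lyn and Ptk2b were well counted in the deep library and had at most 3 fragments in any other.

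Across the 10 genes, none passed the test between Sirpa-KO and Sirpa-WT. With 6 libraries 5 of them passed the count filter, namely Cd47, Ptpn11, Grb2, Skap2 and Csk, and edgeR called 0 of these 5, where it called 0% of 5397 genes, at a biological coefficient of variation of 75.8%. At an unadjusted p of 0.05 the count was 1, Ptpn11, while 6.37% of all tested genes passed that bound; DESeq2 called 0 of the 5, against 0.0185% of all genes, and limma voom called 1, against 23.8% of all genes. Without Sirpa-KO replicate 1 the same 5 passed the filter, and edgeR again called 0, where it called 5.84% of 5510 genes (1.32% higher and 4.52% lower). The count at an unadjusted p of 0.05 was again 1, against 20.8% of all tested genes. Limma voom called 0 of the 5, against 5.39% of all genes. DESeq2, which called 11.7% of the 1130 genes it gave an adjusted p, gave one to 1 of the 5, Grb2, and did not call it. The median log2 fold change of the 5 was 0.68 with 6 libraries, against 0.11 for all genes tested, and 0.058 with 5 libraries, against 0.013 for all genes tested. Of the 5, Ptpn11 and Csk were higher in CPM in every Sirpa-KO library than in every Sirpa-WT library, in either set of libraries. The same held for 20.4% of all tested genes with 6 libraries and 26.3% with 5, shares at which about 1 of 5 genes would do so. These CPM use library totals alone, without the TMM scaling of the fits. With totals over protein-coding genes Ptpn11 stayed apart, but Csk overlapped, at 74.9 CPM in the lowest Sirpa-KO and 76.8 CPM in the highest Sirpa-WT library. Sirpa, Ptpn6, Ptk2b, Src and Lyn were under the filter, and their fold changes come from a fit without one, which called 0% of 22152 genes with 6 libraries and 1.53% of 16568 with 5, and none of these 5 genes. At an unadjusted p of 0.05 none of them passed in either unfiltered fit, where 5.61% of genes did with 6 libraries and 9.27% with 5. Src was lower in both shallow Sirpa-KO libraries than in every Sirpa-WT library, as were 6.98% of the genes in the unfiltered fit.

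**Figure D4:**
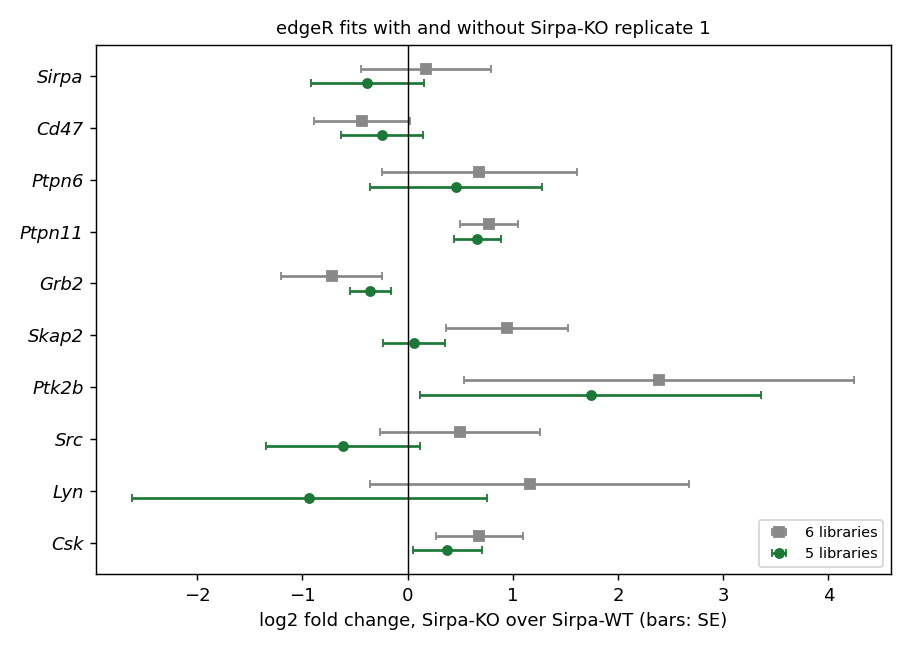
Log2 fold change of each gene, Sirpa-KO over Sirpa-WT, from edgeR with all 6 libraries (grey squares) and without Sirpa-KO replicate 1 (green circles); bars are standard errors. Sirpa, Src and Lyn lie on opposite sides of 0 in the 2 fits, and Ptpn11 and Csk lie to the right of 0 in both.

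Other genes of the pathway were described from lists that name further ligands, kinases and adaptors. None of 6 SIRP family and ligand genes passed the count filter. Sirpb1a, Sirpb1b and Sirpb1c, the SIRPβ receptors without inhibitory tails, had 0 fragments in all 6 libraries. Thrombospondin-1, a secreted CD47 ligand, is encoded by Thbs1, which had 608, 0 and 5 fragments in Sirpa-KO and 0, 0 and 2 in Sirpa-WT. In the unfiltered fits Thbs1 stood at 2.22 ± 1.64 (log2, SE) with 6 libraries (edgeR adjusted p = 0.938) and 1.64 ± 1.23 with 5 (edgeR adjusted p = 0.795). All 4 genes of ITAM signalling (Tyrobp, Fcer1g, Syk and Vav1), the activating counterpart used by SIRPβ, had 0 fragments in the shallow libraries. In Sirpa-KO replicate 1 Syk had 205 fragments, Fcer1g had 28 and the other 2 had 0.

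Among 7 CD47 partners and modifiers, 4 were tested, and 1 fell in Sirpa-KO without replicate 1, where edgeR called 4.52% of all genes lower. This was Bnip3, a hypoxia-induced mitochondrial protein gene reported to bind CD47, with 195 and 185 CPM in the shallow Sirpa-KO libraries and 277, 288 and 287 CPM in Sirpa-WT. It fell by 0.70 ± 0.18 on the log2 scale (SE, edgeR adjusted p = 0.00337), and DESeq2 and limma voom called it as well. In Sirpa-KO replicate 1 it stood at 52.3 CPM, and with 6 libraries the call was lost, at -1.12 ± 0.55 (log2, SE; edgeR adjusted p = 0.574), with no call by DESeq2 or limma voom either. Itgb1, the integrin β1 subunit gene, was the other most abundant member, and stood at 0.11 ± 0.14 on the log2 scale with 5 libraries (SE; adjusted p = 0.715 from edgeR). The list median was -0.11, against 0.013 for all genes tested.

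No tested gene passed edgeR's test in the remaining lists, with or without Sirpa-KO replicate 1. The values that follow are from the 5 libraries without it, where 20.8% of all tested genes had an unadjusted p under 0.05. Of 11 further SRC family kinases and regulators 3 were tested by edgeR, with 1 at an unadjusted p under 0.05 and a median of 0.20. Yes1 was the leading kinase of the family in the shallow libraries, at 9.89 CPM per kilobase, against 3.67 for Fyn, 2.39 for Src, 1.71 for Frk, 0.964 for Lck and 0.515 for Lyn. In Sirpa-KO replicate 1 the levels were 13.6 CPM per kilobase for Fyn, 12.7 for Yes1, 11.5 for Src, 8.15 for Frk, 4.91 for Lyn and 0.708 for Lck. Yes1 took 51.7% of the summed level of the 9 family kinases in the shallow libraries and 24.7% in Sirpa-KO replicate 1. Between the groups it stood at -0.69 ± 0.35 on the log2 scale (SE; adjusted p = 0.235 from edgeR). Ptpra, a receptor phosphatase that can activate SRC, stood at 0.20 ± 0.31 (SE, edgeR adjusted p = 0.777). The blood cell kinases Fgr and Blk had no fragment in any library.

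Of 14 genes of the GRB2 and SHP-2 axis 5 were tested, with 1 at an unadjusted p under 0.05 and a median of -0.10. Nras, a RAS gene and the most abundant tested member per kilobase, stood at -0.10 ± 0.28 on the log2 scale (SE; adjusted p = 0.881 from edgeR). Hras, another RAS gene, named after its values were seen, was the gene at an unadjusted p under 0.05. It stood at 0.90 ± 0.39 (log2, SE, edgeR adjusted p = 0.152). Of 11 adhesion adaptors and kinases 5 were tested, with 2 at an unadjusted p under 0.05 and a median of 0.031. Ptk2, which encodes focal adhesion kinase, the close relative of PYK2, had 514 and 506 CPM in the shallow Sirpa-KO libraries and 663, 582 and 582 CPM in Sirpa-WT. Its log2 fold change was -0.38 ± 0.13 (SE), just short of the threshold (edgeR adjusted p = 0.0511). Per kilobase Ptk2 stood at 114 in the shallow libraries, against 0.299 for Ptk2b. Crk, an adaptor gene named after its values were seen, was the other gene at an unadjusted p under 0.05 and stood in the opposite direction, at 0.47 ± 0.21 (log2, SE; edgeR adjusted p = 0.172). Cttn, the gene of the actin-binding protein cortactin, stood at -0.18 ± 0.16 (SE, edgeR adjusted p = 0.570). Limma voom called 0 genes in these 3 lists with 5 libraries and 1, in the GRB2 and SHP-2 axis, with 6. DESeq2 called 0 in either set, but with 5 libraries it gave an adjusted p to 3 of these genes, all in the adhesion list.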

How the data were processed

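Poly(A)-selected RNA was sequenced from 3 Sirpa-KO and 3 Sirpa-WT libraries, grouped and numbered by their titles. Per the file headers, the authors counted fragments per gene over exons with featureCounts 1.5.1 on the Ensembl release 75 annotation of GRCm38. STAR 2.6.0 and Subread are also named in the submitters' processing notes. The deposited counts are raw. No strand option was set although the kit keeps strand, so reads of a gene and of its antisense partner cannot be separated. Symbols, gene types and transcript sequences came from GENCODE mouse release 21, matched by identifier for 37607 of 39179 genes.

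Members and lists were chosen with earlier results of these data known. Genes passing filterByExpr (minimum count 10) were scaled by TMM and tested 2-sided with edgeR 4.0.16 (glmQLFit, robust=TRUE; R 4.3.3), with p-values adjusted by Benjamini-Hochberg across every gene in the fit (threshold 0.05). Members under the filter took values from a fit without one. Pooled ratios have exact Clopper-Pearson 95% intervals. The named genes were all 10 members, called list genes, and at most 2 of the highest per length in each list; other list genes in the text, such as those at 0 and the SRC family kinases, were named after their values were seen. Alternatives were other scalings and filters, DESeq2 1.42.0, limma 3.58.1 voom, robust=FALSE, the replicate number as a block, protein-coding genes only, thinning of Sirpa-KO replicate 1, lowess offsets (span 0.3) fitted against the deep-to-shallow ratio, and leaving out each library. The fits were tried on simulated data in which Sirpa-KO replicate 1 had the depth and profile of the shallow libraries. That trial therefore could not check the fit that includes the real Sirpa-KO replicate 1. No replicates were merged in the fits, and counts were summed within a group only for the pooled ratios. Between shallow libraries of a group, chi-square divided by its degrees of freedom was 1.18 to 1.65 over genes with at least 20 counts, above sampling noise. The pooled intervals leave out this extra variation and are therefore too narrow. Single-cell libraries of the study were not analysed here.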

Additional observations from a re-analysis of the deposited data

How the results depend on the processing

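With 6 libraries the count of 0 genes called by edgeR was 1 with DESeq2 and 1283 with limma voom, and ran from 0 to 322 with each library left out, the 322 being the fit without Sirpa-KO replicate 1; of the 10 genes described, limma voom called 1, Ptpn11, where edgeR called 0. With 5 libraries the count of 322 was 132 with DESeq2, 198 in protein-coding genes, where fewer genes were tested, and 104 with the trend removed, and ran from 125 to 351 with each library left out. Leaving out Sirpa-KO replicate 2 gave 125, Sirpa-KO replicate 3 gave 127 and Sirpa-WT replicate 2 gave 214. Fits that leave 1 Sirpa-KO library assume that it varies like the other group. The split of 73 higher and 249 lower calls became 279 and 128 with library size alone, which also called 1 of the 10 genes. Apart from the effect of fewer genes or libraries, the cause of these differences was not tested. Of 165 alternative fold changes of the 10 genes with 6 libraries, 159 kept direction and call, 5 changed sign and 1 gained a call; of 150 with 5 libraries, 134 kept both, 6 changed sign, 1 gained a call and 9, all from DESeq2, kept direction but had no adjusted p. Sirpa, at 0.17 with 6 libraries, was -0.011 in protein-coding genes and -0.38 to 0.57 with each library left out, Src was -0.61 to 0.83 and Lyn -0.93 to 1.97. With 5 libraries Sirpa was 0.085 with the replicate block and -0.71 to 0.064 with each library left out, Skap2 was -0.18 with the trend removed and -0.12 to 0.20, Cd47 was -0.67 to 0.089 and Ptk2b -1.88 to 3.67. With 6 libraries, same-numbered libraries correlated in their deviations from group means at r = 0.0236, -0.0415 and 0.0584. Differently numbered ones ran from -0.0629 to 0.0647. This could not decide pairing, because Sirpa-KO replicate 1 pulls the Sirpa-KO mean away from the other Sirpa-KO libraries. With 5 libraries the deviations of the Sirpa-KO libraries mirror each other. The replicate block called 0 genes with 6 libraries and 316 with 5, and none of the 10. The trend was not removed for members under the count filter. The pooled ratios of Ptk2b and Lyn were 0 without Sirpa-KO replicate 3. With totals over protein-coding genes, 6 of the 10 Sirpa-WT levels moved by more than their SD. Depth limits Sirpa, Ptpn6, Ptk2b, Src and Lyn, whose shallow counts did not exceed 12.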
